A study of Mus musculus with 249 samples.

Results

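The brains compared here differ in how much of the anterior pituitary's hormone transcripts their RNA held. Gh, which encodes growth hormone, and Cga, which encodes the alpha subunit shared by thyrotropin and the gonadotropins, were both above -0.25 on 58 arrays (high brains) and both below -0.25 on 185 (low brains). On 5 arrays the 2 genes disagreed, and animal 144 was left out, which makes 243 arrays compared of 249 in all. The members were chosen by the measured levels of Gh and Cga and not from labels, so these 2 genes are described and not tested between the groups. All other genes come from the same RNA as Gh and Cga, and a test on them says which transcripts went along with the 2 hormones.

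All animals were F2 mice of both sexes from C57BL/6J and C3H/HeJ parents, all lacked ApoE, and all ate a Western diet from week 8 to week 24. High and low brains share these features, and the labels do not tell which animal had which sex, genotype or array batch. Brain RNA of each animal was hybridised once, with Cy3, against a Cy5 pool to which every sample's RNA contributed the same amount. A value is the log10 ratio of animal to pool, so that 0.301 is a factor of 2 and 0 is the level of the pool. Each animal was measured once, and the spread between animals is the only error available.

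The anterior pituitary lies under the hypothalamus, joined to it by a stalk, and its endocrine cells each make chiefly growth hormone, prolactin, thyrotropin, the gonadotropins or corticotropin. Transcription factors such as PITX1, POU1F1 and NR5A1 set up these cell types and act on the hormone genes, and receptors for hypothalamic releasing factors govern secretion. The gland is an epithelium with non-endocrine folliculostellate cells between the hormone cells, and brain tissue proper makes little of its hormones.

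The promoters of 4 hormone genes are shown because the genes make the groups (Cga), lead the difference between them (Prl and Tshb) or encode the remaining hormone measured (Lhb). The windows are from RefSeq, assembly GRCm38.p6, and run 5′ to 3′ on the gene's strand from 250 bases before to 50 bases after the start. Capitals mark matches to ATGNATA (a core bound by POU1F1), to CAAGGTCA (a core bound by NR5A1) on either strand, and the last TATAAA that lies before the start on the gene's strand. Further copies of TATAAA are in lower case. Gh is named only.
Prl, chr13:27057320-27057619, plus strand: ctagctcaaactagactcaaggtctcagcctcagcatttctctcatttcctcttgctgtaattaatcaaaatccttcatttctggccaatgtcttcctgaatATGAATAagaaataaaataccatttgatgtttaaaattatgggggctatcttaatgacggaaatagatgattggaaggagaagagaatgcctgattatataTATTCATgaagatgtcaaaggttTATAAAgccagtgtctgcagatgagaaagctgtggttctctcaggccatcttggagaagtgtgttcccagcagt
Tshb, chr3:102782665-102782964, minus strand: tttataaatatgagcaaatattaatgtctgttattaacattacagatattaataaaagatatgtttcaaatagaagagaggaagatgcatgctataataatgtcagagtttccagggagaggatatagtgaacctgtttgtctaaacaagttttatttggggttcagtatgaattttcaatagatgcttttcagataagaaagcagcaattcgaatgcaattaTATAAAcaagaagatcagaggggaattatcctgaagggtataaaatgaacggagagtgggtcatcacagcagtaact
Cga, chr4:34893529-34893828, plus strand: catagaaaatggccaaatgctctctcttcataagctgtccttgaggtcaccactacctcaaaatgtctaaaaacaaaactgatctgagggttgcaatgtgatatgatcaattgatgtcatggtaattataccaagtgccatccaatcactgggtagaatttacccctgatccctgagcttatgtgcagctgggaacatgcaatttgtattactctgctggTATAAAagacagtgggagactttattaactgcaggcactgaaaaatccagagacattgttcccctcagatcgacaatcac
Lhb, chr7:45420696-45420995, plus strand: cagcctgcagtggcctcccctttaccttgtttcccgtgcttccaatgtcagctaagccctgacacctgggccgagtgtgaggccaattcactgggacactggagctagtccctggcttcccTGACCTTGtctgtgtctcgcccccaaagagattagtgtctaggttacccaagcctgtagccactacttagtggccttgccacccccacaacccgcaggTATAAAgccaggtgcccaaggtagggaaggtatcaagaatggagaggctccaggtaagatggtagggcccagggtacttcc
In Prl, ATGNATA stood 148 bases before the start and, on the other strand, 47 bases before it. In Lhb, CAAGGTCA stood on the other strand 129 bases before the start. TATAAA began 24, 27, 30 and 31 bases before the start in Prl, Tshb, Cga and Lhb. Over 32851 promoters of this length, 8.84% held ATGNATA and 1.56% held CAAGGTCA on either strand, while 2.73% held TATAAA on the gene's strand within 50 bases of the start. The promoters of Gh, Cga and the genes that differed between the groups could be looked up for 52 genes, of which 3, 2 and 7 held these. These are counts of genes with a match in any promoter, while the shares above are of promoters. The 7 include the genes whose promoters are shown. A match describes the letters only.

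Gh and Cga had medians far apart in the 2 groups, while some arrays lay close to the rule's threshold on either side. In the high brains Gh ran from -0.169 to 1.02 with a median of 0.558, and in the low brains from -1.36 to -0.301 with a median of -1.12. Cga ran from -0.182 to 0.946 with a median of 0.623 in the high brains and from -1.68 to -0.255 with a median of -1.07 in the low. These ranges follow from the rule. Just inside it lay animals 223, 82 and 224, with Gh at -0.144, -0.169 and -0.152 and Cga at -0.182, 0.260 and -0.0103. Just outside it lay animals 327, 336 and 249, with Gh at -0.519, -0.510 and -0.560 and Cga at -0.255, -0.288 and -0.294. The 5 arrays that disagreed were those of animals 61, 250, 254, 290 and 359. Their Gh lay between -0.514 and -0.217 and their Cga between -0.515 and 0.109.

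**Figure D1:**
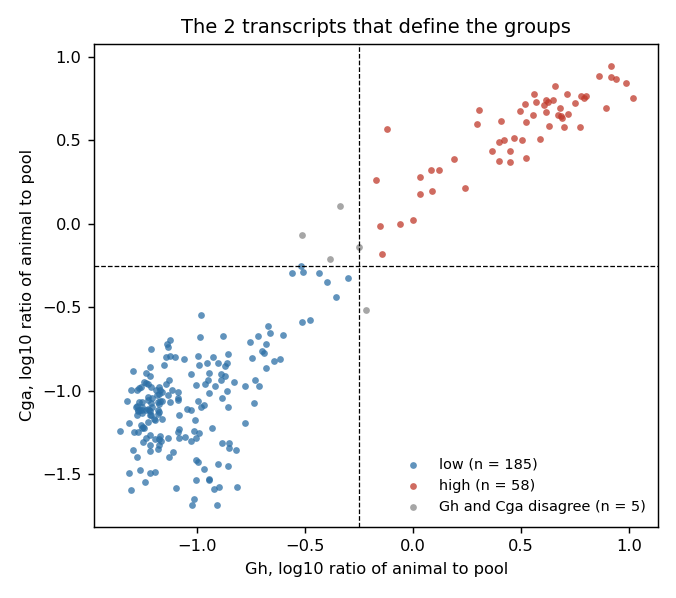
Gh against Cga (log10 ratio of animal to pool), 1 point per array. Dashed lines stand at -0.25. The 58 high brains fill the upper right, the 185 low brains the lower left, and 5 arrays lie in the corners between.

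The other markers of pituitary tissue mostly followed the 2 that made the groups. Tshb was above -0.25 on all 58 high arrays and on 13 of 185 low arrays. Prl was above -0.25 on 39 high and 3 low arrays, and Pitx1 was above the pool on 53 high and 4 low arrays. The label held for the high brains as a group, while Prl alone did not mark all of them. Of the 14 low arrays with Tshb or Prl above -0.25, 5 lay near the rule's edge, with Gh between -0.519 and -0.301: animals 273, 303, 327, 336 and 357. In bulk tissue, fewer pituitary cells and less RNA per cell cannot be told apart.

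Across all genes, the high brains differed from the low brains by more transcript and not by less. Of 11506 genes tested, 78 passed (0.678%; limma, Benjamini-Hochberg adjusted p under 0.05), and all 78 were higher in the high brains. No gene passed as lower, while at an unadjusted p under 0.05 there were 250 higher and 167 lower genes, and limma on quantile-normalised arrays called 105 higher and 18 lower. A difference of at least 0.1, or 1.26-fold, was reached by 21 of the 78 (0.183% of the genes tested), and 6 reached a factor of 2. The median difference of the called genes was 0.0567, a 1.14-fold change, against -0.00124 over all genes tested. None of the 78 separated the groups without overlap. In 51 of the 78 the SD was larger in the high brains, and in 55 the mean lay above the pool in the high brains and below it in the low. The pool holds every sample's RNA, so means on both sides of 0 tend to follow from a gene being higher. Neither count was made over all genes.

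**Figure D2:**
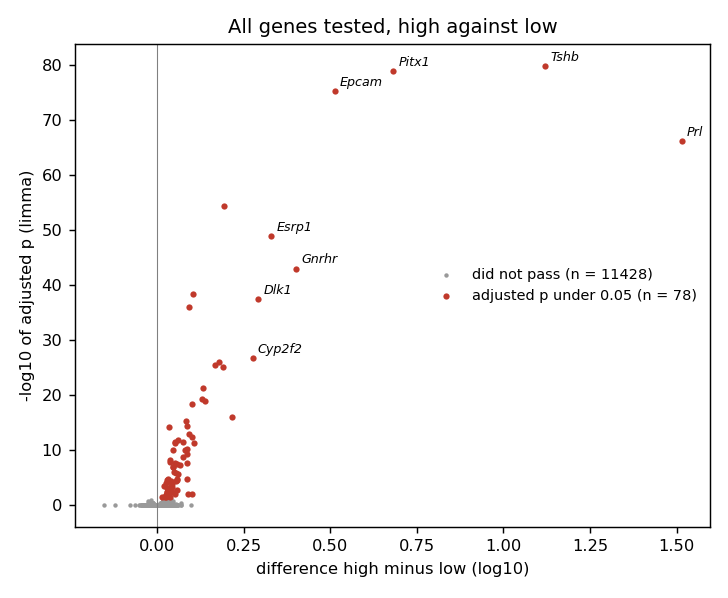
Difference between high and low brains (log10) against -log10 of limma's adjusted p for 11506 genes, 1 point per gene, Gh and Cga left out. The 78 genes that passed, in red, all lie to the right of 0, and Prl, Tshb, Pitx1 and Epcam stand farthest out.

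All 3 hormone genes that were measured besides Gh and Cga were higher in the high brains, against 0.678% of all genes tested. Prl, which encodes prolactin, ran from -1.01 to 0.588 with a median of 0.235 in the high brains and from -1.93 to 0.0302 with a median of -1.62 in the low. The groups overlapped: 20 low arrays reached the lowest high array, although every high array lay above the low median. Prl was 32.7-fold higher (95% interval 24.9 to 42.9, n = 58 and 185, limma adjusted p = 7.21e-67).

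Tshb, the beta subunit that gives thyrotropin its identity, ran from -0.173 to 0.884 with a median of 0.524 in the high brains and from -1.33 to 0.105 with a median of -0.657 in the low. Only 6 low arrays reached the lowest high array. The ratio was 13.1-fold (interval 11.1 to 15.5, limma adjusted p = 1.31e-80). Lhb, the beta subunit of luteinizing hormone, ran from -0.0543 to 0.196 with a median of 0.0686 in the high brains and from -0.146 to 0.0664 with a median of -0.0257 in the low. Its difference was 0.0926 (standard error 0.0058, 1.24-fold, limma adjusted p = 8.76e-37), and 56 of 58 high arrays lay above the low median. Fshb and Pomc, for follicle-stimulating hormone and the corticotropin precursor, were not measured by the probes used. Probes differ in their range, so the folds of different genes do not rank their RNA.

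Of 14 transcription factors of the pituitary, 3 were higher in the high brains, none was lower and 11 did not pass. The share that was higher over all genes tested was 0.678%. Pitx1, a homeodomain factor of the early pituitary that acts on most hormone genes, ran from -0.144 to 0.768 with a median of 0.408 in the high brains and from -0.655 to 0.350 with a median of -0.311 in the low. It was 4.79-fold higher (interval 4.32 to 5.32, limma adjusted p = 1.08e-79), and the highest low array was that of animal 26. Nr5a1, the nuclear receptor SF-1 of gonadotrophs and of the ventromedial hypothalamus, had medians of 0.0614 and -0.0236, a difference of 0.0862 (standard error 0.00925, limma adjusted p = 3.76e-15). Six6, a homeobox gene of eye, hypothalamus and pituitary, had medians of 0.0656 and -0.0179 and was 1.26-fold higher (interval 1.19 to 1.33, limma adjusted p = 4.25e-13).

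The largest differences among the 11 that did not pass were those of Pax7, a factor of melanotrophs in the intermediate lobe, at 0.0294 (limma adjusted p = 0.400; it passed with the mean of Gh and Cga as a continuous term, p = 0.0446), and Foxl2, a factor of gonadotrophs and thyrotrophs, at 0.0191 (limma adjusted p = 0.445). Lhx3, a factor needed for the gland to form, differed by -0.00332, and Tbx19, the corticotroph factor, by -0.0034. The median over the 14 was 0.0104. Pou1f1 was not analysed here.

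Among 10 receptors for releasing factors and feedback, 2 were higher and 8 did not pass, against 0.678% higher over all genes tested. Gnrhr, the receptor through which gonadotrophs respond to gonadotropin-releasing hormone, ran from -0.242 to 0.904 with a median of 0.203 in the high brains and from -0.728 to 0.2999 with a median of -0.135 in the low. The ratio was 2.51-fold (interval 2.27 to 2.78, limma adjusted p = 1.14e-43), with wide overlap at the low end: 171 low arrays reached the lowest high array. Ghrhr, the somatotroph receptor for growth hormone-releasing hormone, ran from -0.0149 to 0.375 with a median of 0.150 in the high brains and from -0.144 to 0.107 with a median of -0.0340 in the low. It was 1.57-fold higher, a difference of 0.195 (standard error 0.00902, limma adjusted p = 3.8e-55), and all 58 high arrays lay above the low median. Drd2, the dopamine receptor that restrains prolactin release and is abundant in the striatum, differed by 0.0102, Trhr, the thyrotropin-releasing hormone receptor, by 0.00134, and Crhr1, the corticotropin-releasing hormone receptor, by -0.0048. The median over the 10 was 0.00139.

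The genes of secretory granules and hormone processing, which neurons also use, mostly did not pass: 2 of 10 were higher and 8 did not pass. Of all genes tested, 0.678% were higher. Dlk1, a membrane protein related to Notch ligands and made by somatotrophs, ran from -0.149 to 0.562 with a median of 0.172 in the high brains and from -0.350 to 0.226 with a median of -0.104 in the low. It was 1.96-fold higher (interval 1.81 to 2.13, limma adjusted p = 3.97e-38). Pcsk1, a convertase that cuts prohormones, had medians of 0.0383 and -0.00339 and a difference of 0.0449 (standard error 0.00691, limma adjusted p = 1.21e-07). Chga, the granule protein chromogranin A, differed by 0.0186, Scg2 by 0.0298 and Pam, which amidates peptides, by 0.0220, and none of these passed. The 10 had a median of 0.0203.

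**Figure D3:**
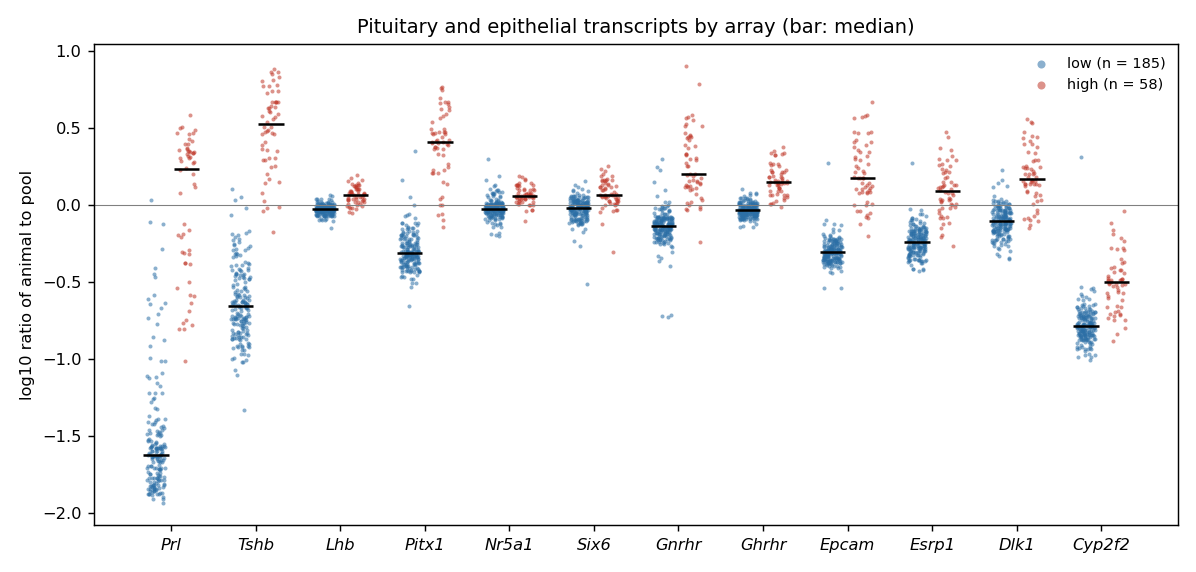
Log10 ratio of animal to pool for 12 genes, 1 point per array, with the 185 low brains in blue, the 58 high brains in red and bars at the medians. Prl and Tshb show the widest gaps between medians. Prl spreads into an upper and a lower cloud within the high brains, and a single low array, that of animal 26, stands high for Pitx1, Epcam, Esrp1 and Cyp2f2.

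Of 12 genes listed for the pituitary's folliculostellate cells and marginal zone, 4 were higher and 8 did not pass, with a median of 0.0157. The share higher over all genes tested was 0.678%. Epcam, an adhesion molecule of epithelia, ran from -0.198 to 0.666 with a median of 0.178 in the high brains and from -0.540 to 0.271 with a median of -0.304 in the low. It was 3.26-fold higher (interval 3.00 to 3.53, limma adjusted p = 5.69e-76), and 10 low arrays reached the lowest high array. The other 3 were Cyp2f2, a cytochrome P450, with medians of -0.502 and -0.787 and a 1.89-fold difference (interval 1.72 to 2.07, limma adjusted p = 1.93e-27), Cldn3, a tight junction protein, at 1.38-fold, and Krt8, a keratin of simple epithelia, at 1.15-fold. Both probes of Krt8 passed on their own, with differences of 0.0776 and 0.0446.

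Other genes among the 25 largest differences were on no list. Esrp1, a splicing factor of epithelial cells, ran from -0.267 to 0.471 with a median of 0.0891 in the high brains and from -0.431 to 0.273 with a median of -0.237 in the low, a 2.14-fold difference (interval 1.98 to 2.31, limma adjusted p = 1.24e-49). Prr15l was 1.55-fold higher, and Upk3a, a uroplakin, 1.22-fold. Cyp2f2, Prr15l, Cldn3 and Krt8 stayed below the pool on average in both groups. Animal 26 carried the highest low value of Epcam, Esrp1, Cyp2f2 and Cldn3, and without this array the count of called genes was again 78, the same 78 genes.

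The rest of the 25 largest differences had varied roles. Ces1d, a carboxylesterase, was 1.64-fold higher (interval 1.49 to 1.81, limma adjusted p = 8.88e-17) at a median of -1.02 against -1.23, and its difference was 0.0516 and did not pass after quantile normalisation (limma adjusted p = 0.999). Ffar4, a receptor for long-chain fatty acids, was 1.51-fold higher, Gulo, the last enzyme of vitamin C synthesis, 1.47-fold, Sytl4 (granuphilin), which docks secretory granules, 1.35-fold, and Sec14l4 also 1.35-fold. Klk1, a kallikrein of a family with near-identical members, stood at 1.28-fold, Parvg, an actin-binding adaptor, at 1.27-fold and Rcn3, a protein of the endoplasmic reticulum, at 1.27-fold. Fam114a1 and Tent5a stood at 1.24-fold and 1.23-fold, and Tent5a did not pass among the lower or among the higher animal numbers. Fabp4, the fatty acid-binding protein of fat cells, was 1.26-fold higher (limma adjusted p = 0.00992), with a single high array at 0.831 against a high median of -0.822. It did not pass among the lower or among the higher animal numbers (below or above the median number), with animal 144 added, after quantile normalisation or with unequal variances.

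Markers of neighbouring tissues and of brain cell types rarely passed the test. Over all genes tested 0.678% passed, so the short lists here and below would mostly hold none at that share. Among 10 genes of the posterior lobe and of tanycytes, 1 was higher: Rax, a homeobox gene of hypothalamus and tanycytes, by 0.0515 (standard error 0.0128, limma adjusted p = 0.0122). It did not pass among the lower or the higher animal numbers or with animal number as a covariate. Among 12 hypothalamic neuropeptides 1 was higher, Gal (galanin), and the list's median was -0.000325. Among 7 genes of retina and pineal 1 was higher, Gnb3, a G protein subunit of photoreceptors, by 0.0304 (limma adjusted p = 4.55e-05), and it missed the threshold among the lower animal numbers.
None of the genes listed for sensory ganglia and Schwann cells (9), meninges (10), skeletal muscle (7), red cells (5), neutrophils (8), endothelium and pericytes (11), choroid plexus (6), microglia (7), neurons (5), cerebellum (10), olfactory bulb (8), oligodendrocytes (8) or astrocytes (6) passed. The medians of these lists lay between -0.0196 for muscle and 0.0115 for meninges. The choroid plexus gene Clic6 had the largest difference relative to its error, 0.0374 (limma adjusted p = 0.108), and it passed as higher under 6 alternatives, among them array weights (limma adjusted p = 0.00123). Cyp2f2 and Ces1d are also made in lung, and their source here was not tested. Of 8 genes listed for lung none passed, with a median of -0.00600. After quantile normalisation 3 of them passed as lower, Sftpb by -0.103, Scgb1a1 by -0.0893 and Scgb3a2 by -0.0775. Sftpb, a surfactant protein, lay at medians of -1.47 and -1.45.

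**Figure D4:**
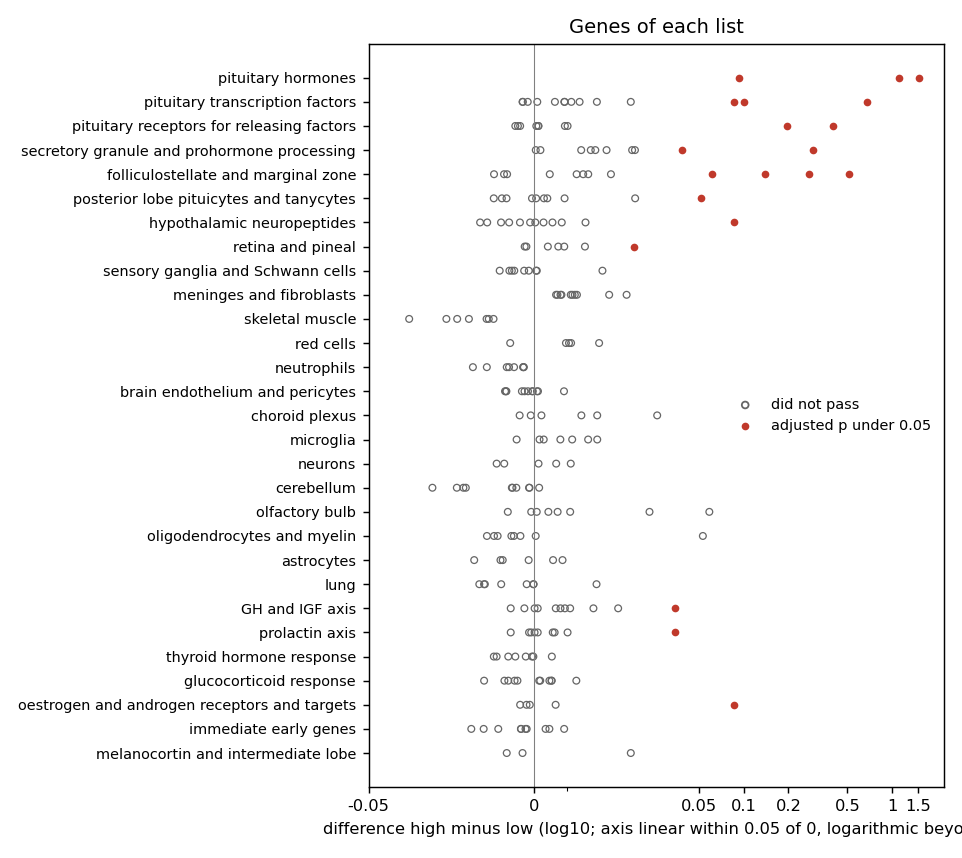
Difference between high and low brains (log10) for each tested gene of 29 lists, 1 row per list and 1 point per gene. Filled points passed limma's test. The axis is linear within 0.05 of 0 and logarithmic beyond it. Filled points lie in the pituitary lists and singly in 6 others, and the folliculostellate and marginal zone list has 4.

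Genes that respond to pituitary hormones in the brain rarely passed the test. The share over all genes was 0.678%, at which lists of this length would mostly hold none as well. Of 11 genes of the growth hormone and IGF axis 1 was higher, and of 9 genes of the prolactin axis the same gene was higher: Stat5a, a transcription factor that both receptors activate, by 0.0429 (standard error 0.00998, limma adjusted p = 0.00434). It did not pass with animal 144 added or among the lower or the higher animal numbers, and its paralogue Stat5b differed by -0.00698. Igfbp3, which carries IGF1, differed by 0.0256 and Ghr, the growth hormone receptor, by 0.00942, and neither passed. None of 8 thyroid hormone response genes, 11 glucocorticoid response genes, 10 immediate early genes or 3 melanocortin genes passed, and the medians of these lists lay between -0.00401 and 0.00165. Of 5 oestrogen and androgen receptors and targets 1 was higher, the oestrogen target Greb1, by 0.0858 (standard error 0.0154, limma adjusted p = 1.61e-05), which did not pass among the higher animal numbers (limma adjusted p = 0.144), while Esr1, the oestrogen receptor, differed by -0.00413.

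Within the 58 high brains many pituitary transcripts rose and fell together, while Prl followed the other hormones less closely. These correlations are over arrays that share 1 pool and a common selection, and they are given as a description. The r of Gh was 0.863 with Cga, 0.877 with Pitx1, 0.856 with Dlk1, 0.831 with Esrp1, 0.821 with Epcam and 0.765 with Ghrhr. That of Cga with Tshb was 0.876. Six6 was looser, at 0.489 with Gh and 0.352 with Cga. Prl had 0.382 with Gh, 0.226 with Cga and 0.145 with Tshb, but 0.452 with Pitx1, 0.534 with Dlk1, 0.545 with Gnrhr, 0.630 with Esrp1 and 0.634 with Epcam. In the 185 low brains most of these were lower, with 0.157 for Gh and Tshb and 0.114 for Gh and Dlk1, but Prl followed Gh there at 0.646 and Cga at 0.614.

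The spread of Prl within the high brains went with a transcript of the Y chromosome. Eif2s3y, a translation factor subunit encoded there, had no value between -1.17 and -0.0691 on any array compared, so each group fell into an upper and a lower set. It was above -0.5 on 25 high and 93 low arrays and below on 33 high and 92 low arrays, and its mean differed by -0.153 between the groups (limma adjusted p = 1). The upper set was uneven, running from -0.0691 to 0.525 in the high brains. Its lower end held neighbouring animals such as 147, 148, 150 and 152, at 0.0181, 0.0582, -0.0691 and 0.105, against a median of 0.325. Sex is not given per animal, no animal was assigned one, and Eif2s3y entered the fits as a continuous term. Of 11507 genes, 58 varied with Eif2s3y within the high brains (0.504%), 43 of them falling as it rose (0.374%) and 15 rising. In the low brains 240 genes varied with it (2.09%), and 30 genes did so in both groups. Of the 58, 19 were among the 78 genes higher in the high brains, which are 0.678% of the genes tested between the groups. All 19 fell as Eif2s3y rose, as did 43 of the 58.

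Prl had the steepest slope after Kdm5d, a demethylase gene also on the Y chromosome. In the high brains with Eif2s3y above -0.5, Prl ran from -1.01 to 0.134 with a median of -0.381, and in those below from 0.0815 to 0.588 with a median of 0.345. The 2 sets nearly parted. In the low brains the medians were -1.66 and -1.56, with a highest value of -0.989 in the set above and 0.0302 in the set below. The slope was -0.429 log10 units of Prl per unit of Eif2s3y in the high brains (standard error 0.0282, limma adjusted p = 2.51e-18) and -0.140 in the low (limma adjusted p = 0.000221). The slopes differed by -0.289 (standard error 0.0529, limma adjusted p = 0.000201), and this difference did not pass with a threshold of 0, among the higher animal numbers or on ranks. Prl reached down to -1.93 in the low brains, near the lower limit of -2. Whether this limit makes the slope there shallower was not tested.

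The other hormones did not part in this way within the high brains. Tshb had medians of 0.556 and 0.505 above and below, Gh 0.518 and 0.615, Cga 0.608 and 0.654, and Lhb 0.0750 and 0.0559. None of Tshb, Lhb, Gh and Cga was among the 58 genes. Gh and Cga were part of the fits on Eif2s3y, although the rule bounds their values within each group. Pitx1 had medians of 0.389 and 0.470. In the low brains Tshb did vary with Eif2s3y, with a slope of -0.0652 (limma adjusted p = 0.0231) and medians of -0.734 above and -0.595 below. Lhb did not pass there (limma adjusted p = 0.752).

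Gal and Greb1 also varied with Eif2s3y within the high brains. Gal, galanin, which lactotrophs as well as neurons make, had a median of -0.0397 in the high brains with Eif2s3y above -0.5 and 0.146 in those below. In the low brains the medians were -0.0149 and -0.0450. Its slope was -0.0808 in the high brains (standard error 0.0140, limma adjusted p = 0.000267) against 0.0169 in the low, a difference of -0.0976 (standard error 0.0121, limma adjusted p = 3.35e-10) that passed under all 14 alternatives. The slope within the high brains did not pass among the higher animal numbers for Gal (limma adjusted p = 0.338) or for Greb1 (limma adjusted p = 0.113). Greb1 had medians of 0.0162 and 0.145 in the high brains and 0.0160 and 0.000788 in the low. Its slope was -0.0773 (standard error 0.0123, limma adjusted p = 7.35e-05) against 0.00967, and the difference of -0.0870 (limma adjusted p = 0.000157) was lost among the higher animal numbers.

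**Figure D5:**
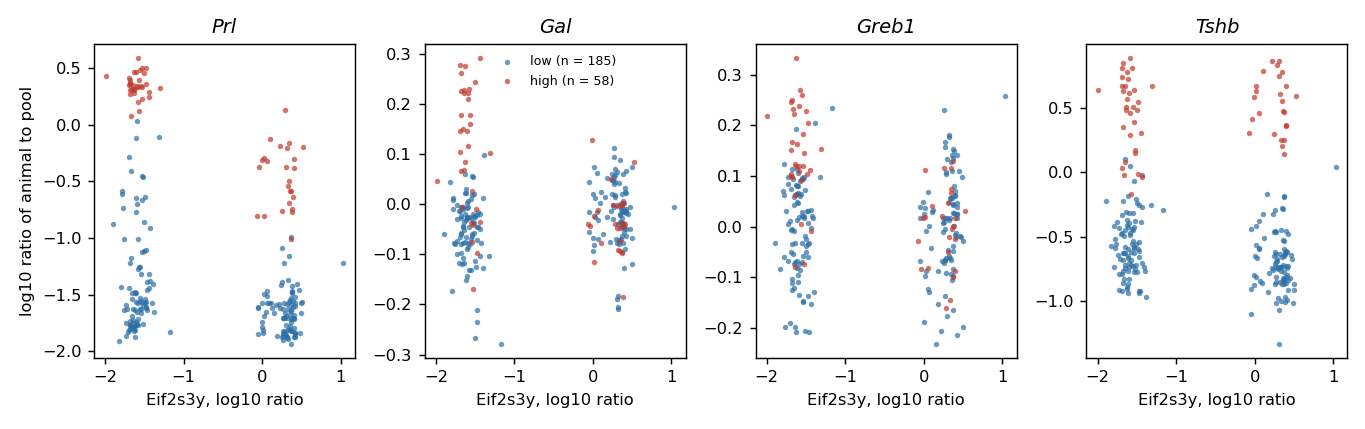
Prl, Gal, Greb1 and Tshb (log10 ratio of animal to pool) against Eif2s3y, 1 point per array, with the 58 high brains in red and the 185 low brains in blue. Within the high brains Prl, Gal and Greb1 lie higher where Eif2s3y is low, while the medians of Tshb on the 2 sides, 0.556 and 0.505, lie close and its values reach lower where Eif2s3y is low.

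The slope differed between high and low brains for 14 of 11507 genes (0.122%), each time more negative in the high brains. Of the 14, 13 were among the 78, which are 0.678% of the genes tested between the groups. Besides Prl, Gal and Greb1 the 14 included Epcam, whose medians in the high brains were 0.115 above and 0.313 below, Gnrhr with 0.140 and 0.383, Esrp1 with 0.0216 and 0.149, Dlk1 with 0.135 and 0.243, and Celf4, an RNA-binding protein of neurons, with -0.0105 and 0.0893. Among the higher animal numbers only Gal passed, and with a separate variance for each group Epcam, Gnrhr and Dlk1 did not. The X-linked genes named by the rule, and Ddx3x, had slopes of like size in both groups. Kdm6a, an X-linked demethylase, had slopes of -0.0773 and -0.0806, Eif2s3x, the X-linked partner of Eif2s3y, -0.0738 and -0.0753, and Ddx3x, an X-linked helicase, -0.0449 in both.

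High brains occurred throughout the series. The mean animal number was 187 in the high and 183 in the low brains, a difference of 3.24 (two-sided permutation test, 100000 resamples, p = 0.842). In 4 successive runs of animal numbers 16 of 61, 11 of 61, 16 of 60 and 15 of 61 arrays were high, or 26.2%, 18.0%, 26.7% and 24.6%. Animal numbers carry no stated meaning as batches. Among the lower numbers 48 genes passed, all among the 78, and among the higher numbers 60, of which 53 were among the 78.

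The array SD over probes ran from 0.0585 to 0.258 with animal 144 left out, highest for animal 178, a low brain. Array medians lay between -0.00627 and 0.0250, and 113 values stood at the lower limit of -2 and 83 at the upper limit of 2. Signal over background is unknown, and precision is limited by how many arrays there are.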

How the data were processed

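The deposited table holds, for each probe and each array, the authors' log10 ratio of animal over pool. The dyes are per the labels. For scanner, background treatment and dye normalisation, the method was not given in any source used here. Base and direction were inferred: the upper set of Eif2s3y had a median of 0.319 in the low brains, near the 0.301 that a factor of 2 over a pool of both sexes gives. That set ran from -0.0501 to 1.03. Array medians lay near 0, and whether the arrays had been centred is unknown.

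Of 23388 probes, 13645 named 1 gene, 48 several and 9695 none. Probes naming 1 gene and measured on at least 90% of the arrays (13444) were averaged per gene, with gaps (0.710% of values) filled by the probe's mean. Symbols were updated by Entrez ID to assembly GRCm38.p6 for 12456 probes. This gave 11508 genes. For 1 sample the title (399) and source name (339) disagree, and the source name was used. The labels name 330 mice; the 249 arrays are those analysed here. Animal 144 was left out, as the rule states. No other sample columns were used.

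Groups were compared with limma 3.58.1 in R 4.3.3 (lmFit, eBayes; Benjamini-Hochberg over all genes tested, threshold 0.05), without covariates. Fits on Eif2s3y used the high arrays, the low arrays, or both with an interaction. Folds are antilogs of differences of means, with 95% intervals. Animal numbers were compared with a permutation test run in R 4.3.3. Scripts were tested on simulated data. Promoter letters were read from RefSeq windows.

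The members, gene lists and tests were chosen with earlier results of these data known, so no result is independent support for the choice. Genes to be named were all measured members of the lists of hormones, transcription factors, receptors and granule genes. Next came the 25 largest differences among the called genes and up to 3 members of each other list with the smallest adjusted p. Eif2s3y, Kdm5d and the 10 largest slopes and slope differences were added. Not every gene in these sets is described above. Genes outside this rule were chosen after their values were seen: Ddx3x, the genes of the observations on animal 26, Krt8, Slc5a8, Alg1, Igsf1, Nucb2 and Mest. Rab38, Ssh3, SLCO2A1 and Rnaset2b also lie outside it and are named because their slope difference passed. Alternatives changed the thresholds, marker genes, arrays, covariates, scaling, probes and test.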

Additional observations from a re-analysis of the deposited data

Results flagged for a closer look

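The slope on Eif2s3y differed between high and low brains for 14 genes by the interaction test (limma, adjusted p under 0.05), always more negative in the high brains. The differences in slope, in log10 units per unit of Eif2s3y, were -0.289 for Prl, -0.107 for Gnrhr, -0.0976 for Gal, -0.0956 for Epcam, -0.0934 for Esrp1, -0.0870 for Greb1, -0.0780 for Dlk1 and -0.0612 for Celf4. They were -0.0439 for Cryba2, a lens crystallin, -0.0385 for Il17a, a cytokine, -0.0362 for Rab38, a GTPase of vesicle traffic, -0.0341 for Ssh3, a phosphatase acting on cofilin, -0.0341 for SLCO2A1, a prostaglandin transporter, and -0.0336 for Rnaset2b, a ribonuclease. Il17a is the gene of the 14 that did not differ between high and low brains by the test, with a difference of 0.0144, though it passed with array weights and with groups made from Tshb and Prl. Adjusted p-values ran from 3.35e-10 for Gal to 0.0348 for Cryba2.

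The test pools the variance of the groups, while several of these genes varied more in the high brains. With a separate variance for each group 12 genes passed, 11 of them among the 14, and Epcam, Gnrhr and Dlk1 did not. Prl kept a slope past the threshold within the high brains under all 13 alternatives, with values between -0.513 and -0.414 where ranks were not used. Epcam, Gnrhr, Esrp1 and Dlk1 did not pass within the high brains alone (limma adjusted p = 0.0568, 0.0811, 0.113 and 0.199). All 4 passed there with the mean of Cga and Tshb as a covariate (limma adjusted p = 3.97e-08, 0.000909, 1.13e-08 and 6.36e-05), Epcam also on ranks and Gnrhr also among the lower animal numbers.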

How the results depend on the processing

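No named gene that passed, in the main fit or in an alternative, changed direction between them. Changes of sign in values that passed in neither were not counted. The 78 genes became 48 among the lower animal numbers (below the median number), 123 after quantile normalisation (105 higher and 18 lower, with 76 of the 78 among them), 130 with array weights (127 higher and 3 lower), 136 with 1 value per probe and 51 among genes with an SD of at least the median gene. Under the other alternatives they lay between 59, with animal 144 added, and 101, without the 12 arrays of largest SD. The 21 genes with at least 0.1 became 36 with 1 value per probe and were otherwise 17 to 28. The 58 genes that varied with Eif2s3y became 28 and 9 among the lower and the higher animal numbers, and otherwise 41 to 71. The 14 slope differences became 9 and 1 among these and 4 on ranks, and otherwise 10 to 16. These subsets hold fewer arrays (27 and 31 high). With groups made from Tshb and Prl, 93 genes passed, 91 higher and 2 lower, the 2 being Eif2s3y at -0.720 and Kdm5d at -0.600. Of 709 values of 34 named genes that passed, 691 passed again and 18 did not. Of 1999 values of 97 that had not, 15 passed. The animal number comparison gave permutation p-values from 0.331 to 0.842. The causes of these shifts were not tested. Alternatives without the 14 low arrays with Tshb or Prl above -0.25 (76 genes), without animal 26 (78), with separate variances and with the mean of Cga and Tshb as a covariate (71 genes varied with Eif2s3y) were chosen after seeing the data. No paired analysis was possible because each animal has 1 array and the groups share no replicate numbers.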

Other observations

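A single low brain, that of animal 26, was high in several of the leading transcripts but not in the pituitary hormones. It ranked first among the 185 low arrays for Pitx1 at 0.350, Epcam at 0.271, Esrp1 at 0.273, Cyp2f2 at 0.314, Cldn3 at 0.174 and Ces1d at 0.0891, against low medians of -0.311, -0.304, -0.237, -0.787, -0.374 and -1.23. Gh, Cga, Prl and Tshb lay at -1.03, -1.30, -1.77 and -0.831, and Gnrhr and Ghrhr ranked 159 and 129. The same array ranked first for Scgb1c1, a secretoglobin, at 1.84, Cnga2, the cyclic nucleotide channel of olfactory neurons, at 1.48, Cyp2g1, a P450 of olfactory mucosa, at 1.08, Bpifb3 at 1.76 and S100a5, a calcium-binding protein of olfactory neurons, at 1.05. The lung surfactant gene Sftpc lay at -1.54, rank 143.

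Other low arrays with Pitx1 above the pool were those of animals 77, 178 and 213, at 0.00146, 0.0531 and 0.163, with Epcam at -0.178, -0.215 and -0.540. The arrays of animals 178 and 213 had wide SDs over probes, 0.258 and 0.244, against a median of 0.0764 over all arrays.

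Some genes called beyond the leading 25 have known ties to the pituitary or to growth. Those named here were picked after their values were seen, and how many of the others have such ties was not counted. Igsf1, an immunoglobulin protein whose loss in people causes central hypothyroidism, was higher by 0.0572 (limma adjusted p = 0.00195). Nucb2, the precursor of nesfatin, was higher by 0.0461 (limma adjusted p = 1.21e-07) and Mest, an imprinted gene of growth, by 0.0747 (limma adjusted p = 3.59e-12).

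Probes without a gene name gave a like picture. Of 9609 tested 54 passed, all higher in the high brains, and 14 of them differed by at least 0.1. For Slc5a8, a monocarboxylate transporter, 1 probe differed by 0.106 and the other by 0.00395, so the mean of 0.0549 joins probes that disagree. The 2 probes of Alg1, the smallest difference called, gave 0.0239 and 0.00182, and neither passed alone.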
